A study of Mus musculus with 8 samples.

Results

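The nuclear subunits of mitochondrial complex I were followed in mouse blastocysts after vitrification with and without melatonin. They were taken as the genes of the expression table whose symbol is Nduf followed by a, ab, b, c, s or v and a number, which 37 of 19688 genes had. Of these, 7 encode core subunits and the other 30 are accessory by this rule. RNA sequencing libraries came from 3 groups of blastocysts. In the MVT group (3 libraries) blastocysts were cooled to a glass without ice (vitrification) and thawed in media with 1e-10 M melatonin, an antioxidant hormone. The VT group (3 libraries) was vitrified and thawed without melatonin, and the fresh group (2 libraries), which served as control, was not vitrified. The fresh libraries are titled IVF, the usual short form of in vitro fertilisation. The titles of the VT and MVT libraries do not give the origin of their embryos. The sources used here give no strain, embryo age or number of embryos per library. They do not say that replicates came from separate animals or pools, so p-values measure the spread between these libraries, which may be technical. Within VT, replicate 1 held Y-linked transcripts that replicates 2 and 3 lacked. It was thus not from the same embryos as they were, and the spread within VT is not only technical. Values are FPKM as deposited by the authors, that is, fragment numbers corrected for transcript length and library size, so that levels of different genes are compared per length.

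An estimated 5843000 to 9941000 fragments stood behind each library (fresh replicate 2 and fresh replicate 1). Transcripts of the mitochondrial genome took 11.3% of the summed FPKM in fresh replicate 1 and 4.24% to 6.56% in the other 7 libraries. The libraries carried trophectoderm, epiblast and primitive endoderm markers, while those of cumulus cells, blood and fibroblasts, of which 1 of 7, 1 of 3 and 3 of 4 were analysed, summed to at most 1.34 FPKM per list. The 7 epiblast markers summed to 133 to 153 FPKM in MVT, 131 to 166 in VT and 22.6 and 73.7 in fresh replicates 1 and 2, with 6 of 7 above 0 in fresh replicate 1 and 7 of 7 elsewhere. Fresh replicate 1 thus stood apart. The part of the epiblast markers in the values against fresh was not tested. The 7 primitive endoderm markers, all above 0 in each library, summed to 46.2, 37.7 and 38.99 FPKM in MVT, 52.7, 79.5 and 68.5 in VT and 25.8 and 72.5 in fresh. Every MVT sum lay below every VT sum, as did the values of Gata6, Gata4 and Pdgfra, while Sox17, Sox7, Foxa2 and Lama1 overlapped. The part of the primitive endoderm markers in MVT against VT was not tested. The 9 trophectoderm markers summed to 13314, 10810 and 12682 FPKM in MVT, 12652, 8223 and 11736.5 in VT and 10238 and 9768 in fresh. Their MVT sums all lay above both fresh sums, as did the MVT values of Krt8, Krt18 and Gata3 above those in fresh. Cldn4 and Elf5 lay below fresh in every MVT library, while Cdx2, Eomes, Id2 and Tfap2c overlapped. The part of the trophectoderm markers in the values against fresh was not tested. In libraries of whole blastocysts, fewer cells of a type and less RNA per cell cannot be told apart.

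Complex I oxidises NADH, passes the electrons over a flavin and a chain of iron-sulfur clusters to ubiquinone, and pumps protons across the inner mitochondrial membrane. The core subunits, conserved from bacteria, carry out this chemistry, with those of the membrane arm encoded in the mitochondrial genome. The nuclear core subunits lie in the N module, which takes up electrons from NADH, and in the Q module, which hands them to ubiquinone, while accessory subunits surround both modules and the membrane arm and are needed for assembly and stability. In the blastocyst, respiration supplies much of the ATP for the sodium pumps of the trophectoderm that fill the cavity.

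Mean levels ran between 5.65 and 710.4 FPKM, although the complex holds most of these subunits in equal numbers. Ndufb9, a LYR-motif subunit of the distal membrane arm, was the most abundant with 560.5, 646 and 754 FPKM in the MVT libraries, 709.7, 764 and 698 in the VT libraries and 739 and 812 in the fresh libraries. The next in order of mean FPKM were Ndufa8 (456), a subunit on the intermembrane space side, Ndufa6 (293), another LYR protein, and Ndufb6 (262), of the distal arm. The ranges of Ndufb9, Ndufa8 and Ndufa6 over the 8 libraries did not overlap, whereas those of Ndufa6 and Ndufb6 did. At the low end, Ndufab1, the mitochondrial acyl carrier protein found in both arms, had 5.66, 4.04 and 5.40 FPKM in the MVT libraries, 4.81, 5.54 and 5.38 in the VT libraries and 7.22 and 7.15 in the fresh libraries. The distal arm subunits Ndufb4 and Ndufb2 averaged 7.26 and 16.5 FPKM over the 8 libraries. The lowest core subunit was Ndufs1, the largest subunit of the N module and the carrier of several iron-sulfur clusters, at 18.5 FPKM, and the highest was Ndufs8, an iron-sulfur subunit of the Q module, at 238. The order of mean FPKM put Ndufs8 at rank 5 and Ndufs1 at rank 34 of 37, with the other core subunits in between. For 31 of the 37 genes with several annotated transcripts, the length behind the FPKM is not known, so the order of their levels depends on the length that the authors used. For Ndufa1, 1 of the 6 with a single transcript, the FPKM corresponded to an estimated 239, 248 and 357 fragments in the MVT libraries, 315, 608 and 766 in VT and 844 and 310.0 in fresh.

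**Figure D1:**
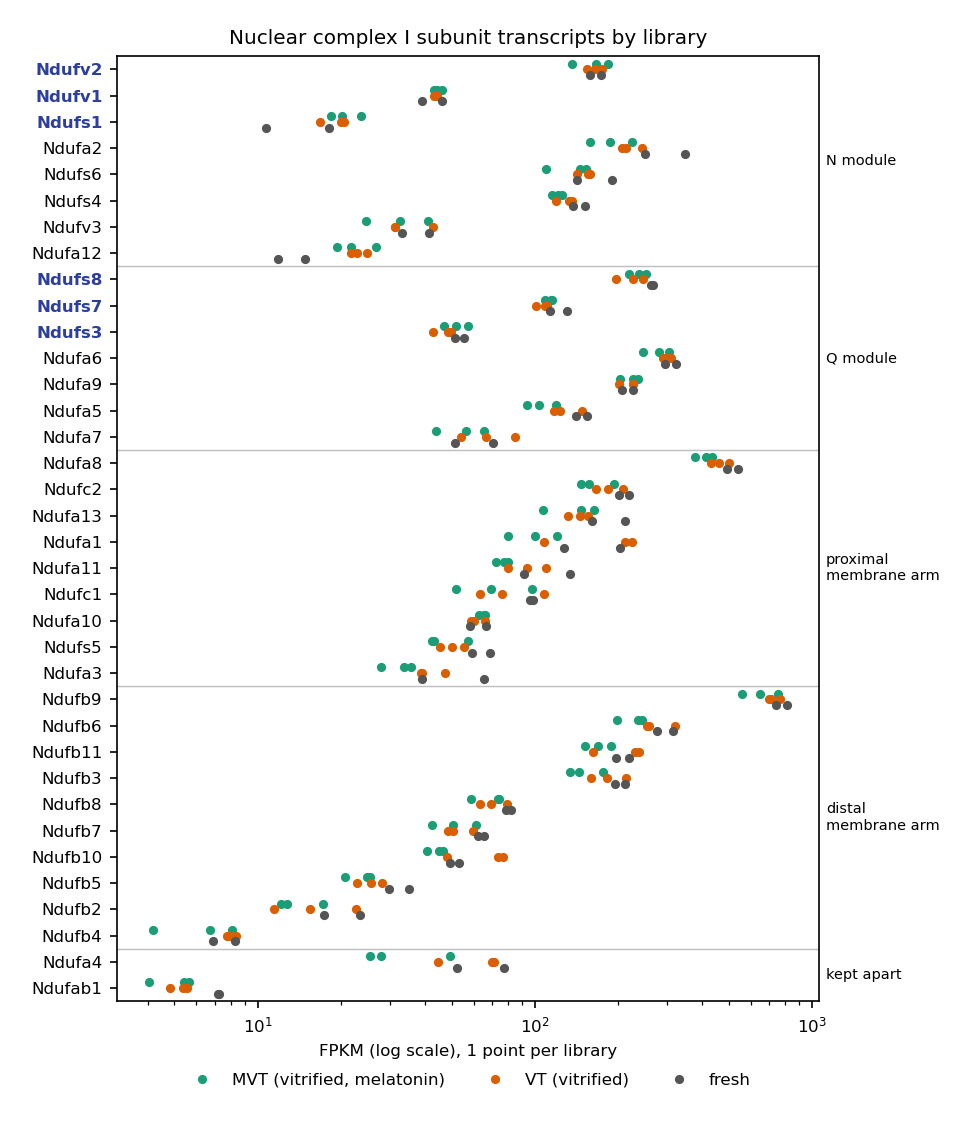
FPKM of 36 of the subunits (log scale), 1 point per library, for MVT, VT and fresh blastocysts, with core subunits in bold blue and rows grouped by module. Ndufb9 is highest at a mean of 710.4 FPKM and Ndufab1 lowest at 5.65, and differences between groups are small beside those between genes.

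Promoters are shown because nuclear respiratory genes are known targets of NRF1, of ETS factors such as GABP and of YY1. RefSeq promoter windows (GRCm38.p6, 250 bases before to 50 after the start) were found for 33 of the 37 genes, in 35 windows. The NRF1 motif was searched as GCGCA and GCGC with any 1 base between them, on both strands, and was in 8 of these 35 windows (22.9%), against 10.9% of windows of all tested genes and 4.6% of all windows. All 8 belonged to accessory subunits (8 of 30 windows), and 0 of the 5 core windows held it. Both windows of Ndufa5 are among the 8. They overlap and share the matching site, which was counted for each. CCGGAAG, an ETS motif, was in 4 of 35 windows (11.4%), against 19.6% of windows of tested genes and 8.86% of all windows, and AA and ATGGCGG with any 1 base between them, a YY1 motif, in 4 of 35 (11.4%), against 3.65% and 1.36%. The ETS motif was in 2 of 5 core and 2 of 30 accessory windows, and the YY1 motif in 1 of 5 and 3 of 30. With only 5 core windows, a difference between the classes was not tested for any of these motifs. The last 150 bases before the start are given 5′ to 3′ for 3 accessory subunits with the NRF1 letters (for Ndufa5, before 1 of its 2 annotated starts) and for the core subunit Ndufs3 with the ETS letters, in capitals where the motif lies. A match describes these letters only and does not show that a factor binds.
Ndufa5, chr6:24527691-24527840, minus strand: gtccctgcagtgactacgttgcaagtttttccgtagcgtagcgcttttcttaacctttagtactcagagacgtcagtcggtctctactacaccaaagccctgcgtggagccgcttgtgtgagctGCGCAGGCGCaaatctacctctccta
Ndufa8, chr2:36049339-36049488, minus strand: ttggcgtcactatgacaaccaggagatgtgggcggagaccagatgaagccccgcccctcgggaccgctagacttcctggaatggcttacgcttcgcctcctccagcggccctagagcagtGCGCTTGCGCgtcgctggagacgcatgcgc
Ndufs5, chr4:123718187-123718336, minus strand: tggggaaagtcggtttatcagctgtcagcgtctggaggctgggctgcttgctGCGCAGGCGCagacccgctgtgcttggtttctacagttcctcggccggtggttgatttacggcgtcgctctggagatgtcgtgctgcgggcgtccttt
Ndufs3, chr2:90904722-90904871, minus strand: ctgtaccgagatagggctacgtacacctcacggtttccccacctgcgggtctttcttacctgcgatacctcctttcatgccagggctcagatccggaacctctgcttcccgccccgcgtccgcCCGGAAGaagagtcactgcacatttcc

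Among the core subunits of the N module, Ndufv1, which binds NADH and the flavin, had 46.2, 44.3 and 43.1 FPKM in the MVT libraries, 43.2, 44.5 and 44.2 in the VT libraries and 39.03 and 46.01 in the fresh libraries. The 3 groups overlapped, and the log2 fold changes, which are differences of mean log2(FPKM + 1) in this and all later statements, were 0.05 ± 0.14 (SE) for VT against fresh, 0.02 ± 0.13 for MVT against VT and 0.07 ± 0.14 for MVT against fresh. Ndufv2, an iron-sulfur subunit beside it, had 136, 166 and 183 FPKM in the MVT libraries, 155, 165 and 174 in the VT libraries and 159 and 173 in the fresh libraries. All 3 groups of Ndufv2 overlapped. Ndufs1 had 20.1, 23.6 and 18.3 FPKM in the MVT libraries, 19.97, 16.7 and 20.4 in the VT libraries and 10.7 and 18.1 in the fresh libraries. The lowest value was that of fresh replicate 1, every MVT library lay above both fresh libraries, and the log2 fold changes of Ndufs1 were 0.53 ± 0.23 (SE, adjusted p = 0.259) for MVT against fresh and 0.42 ± 0.23 (SE, adjusted p = 0.333) for VT against fresh. Without fresh replicate 1 they were 0.18 and 0.07, and neither passed the threshold.

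Of the core subunits of the Q module, Ndufs7, which carries the last iron-sulfur cluster of the chain, had 109, 115 and 114 FPKM in the MVT libraries, 101, 111 and 109 in the VT libraries and 114 and 131 in the fresh libraries. Ndufs8 had 219, 238 and 251 FPKM in the MVT libraries, 226, 245 and 196 in the VT libraries and 266 and 261 in the fresh libraries. Both of these lay lower in every VT library than in either fresh library, with log2 fold changes of -0.19 ± 0.14 and -0.25 ± 0.15 (SE, adjusted p = 0.469 and 0.367), and the MVT libraries of Ndufs8 also lay below fresh. For Ndufs7 the value was -0.09 without fresh replicate 2, and for Ndufs8 it was -0.16 without VT replicate 3. Ndufs3, which scaffolds the Q module, had 47.04, 57.5 and 51.7 FPKM in the MVT libraries, 42.9, 49.8 and 48.5 in the VT libraries and 55.2 and 51.5 in the fresh libraries. Its VT libraries lay below fresh, at -0.18 ± 0.15 (SE, adjusted p = 0.545), while MVT overlapped both other groups. Reads of Ndufs3 may be shared with the processed pseudogene Gm12251, whose annotated transcript matched it at 98.6% over 792 bases.

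The comparison of VT with fresh blastocysts addressed what vitrification and thawing change. Most accessory subunits lay slightly lower in VT than in fresh libraries, the core subunits lay close to 0 on balance, and Ndufa12 lay higher. Of 37 subunits tested with limma, 0 passed at an adjusted p below 0.05, where 0.865% of the 10755 tested genes did. At an unadjusted p below 0.05, 1 subunit was higher and 0 were lower, against 15.6% and 4.56% of tested genes. The median log2 fold change was -0.14 over all subunits, -0.01 over the core and -0.15 over the accessory subunits, while that of all tested genes was 0.14. Below 0 lay 24 of 30 accessory and 4 of 7 core subunits, against 36.5% of tested genes. In 10 of 37 subunits, 3 of 7 core and 7 of 30 accessory, all VT libraries were below both fresh libraries (10.6% of tested genes). In 1 they were above (26.4%). Below the median of all tested genes lay 27 of 30 accessory and 5 of 7 core subunits. When fresh replicate 1 was left out, 23 of 37 lay below 0, and all tested genes had a median of 0.07. The median over all subunits was then -0.08, it was -0.22 when fresh replicate 2 was left out, and -0.09 when VT replicate 1 was. With median ratio scaling of the libraries the median over all subunits was -0.34, that of all tested genes was -0.01, and 0 subunits passed.

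Ndufa12, an accessory subunit at the joint of the N and Q modules and a paralogue of the assembly factor Ndufaf2, had the smallest p of the 37 in this comparison. It had 19.3, 21.7 and 26.7 FPKM in the MVT libraries, 21.8, 24.7 and 22.7 in the VT libraries and 14.8 and 11.9 in the fresh libraries. Every VT and every MVT library lay above both fresh libraries, with log2 fold changes of 0.75 ± 0.19 (SE, adjusted p = 0.0736) for VT and 0.71 ± 0.19 (SE, adjusted p = 0.147) for MVT, each against fresh, and -0.04 ± 0.17 between MVT and VT. Neither passed the threshold, and the processed pseudogene Gm15920 matches Ndufa12 at 99.5% over 402 bases, so that reads could be split between them. Ndufa2, a thioredoxin-like subunit of the N module, ran the other way with 158, 187 and 223 FPKM in the MVT libraries, 205, 243 and 212 in the VT libraries and 347 and 249.5 in the fresh libraries. All 6 vitrified libraries of Ndufa2 lay below both fresh libraries, with -0.42 ± 0.20 (SE, adjusted p = 0.263) for VT and -0.65 ± 0.20 (SE, adjusted p = 0.164) for MVT. Without fresh replicate 1 these values of Ndufa2 were -0.18 and -0.41, while those of Ndufa12 were 0.90 and 0.86.

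Other subunits with the smallest p in the lower direction after vitrification were Ndufs5, Ndufb5 and Ndufab1. Ndufs5, a disulfide-linked subunit of the intermembrane space, had 42.4, 43.1 and 57.3 FPKM in the MVT libraries, 45.5, 55.5 and 50.003 in the VT libraries and 68.9 and 59.1 in the fresh libraries. Ndufb5, a single-span subunit of the distal arm, had 20.7, 24.8 and 25.5 FPKM in the MVT libraries, 22.8, 28.03 and 25.6 in the VT libraries and 34.98 and 29.6 in the fresh libraries. All VT and all MVT libraries of Ndufs5, Ndufb5 and Ndufab1 lay below the fresh ones, and MVT replicate 2 held the lowest value of Ndufab1. The log2 fold changes for VT were -0.34 ± 0.18, -0.33 ± 0.17 and -0.39 ± 0.20 (adjusted p = 0.323, 0.314 and 0.299). Ndufs5 and Ndufab1 have processed copies in the annotation, BC002163 at 99.4% identity for Ndufs5 and Gm4459 at 99.8% for Ndufab1. Ndufs4, the N module subunit whose loss in mice causes a fatal brain disease, had 115, 121 and 125 FPKM in the MVT libraries, 119, 136 and 133 in the VT libraries and 137 and 151 in the fresh libraries. Ndufb7, another intermembrane space subunit, had 42.5, 50.8 and 61.1 FPKM in the MVT libraries, 48.5, 59.8 and 50.6 in the VT libraries and 65.6 and 62.4 in the fresh libraries. Both were lower in all 6 vitrified libraries than in fresh, at -0.15 ± 0.14 and -0.27 ± 0.18 for VT, without passing (adjusted p = 0.562 and 0.431).

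Adding melatonin to the vitrification and thawing media was examined by setting MVT against VT. VT replicates 2 and 3 differed from all other libraries in sex-linked transcripts, with Xist at 10.5 and 8.14 FPKM against at most 0.963. The part of this difference in MVT against VT, and in VT against fresh, was not tested for any subunit. Accessory subunits again lay on the lower side, most of all Ndufa4, Ndufa1 and Ndufb10, and core subunits slightly on the higher side. Here too 0 of 37 subunits passed with limma at an adjusted p below 0.05 (0.139% of tested genes did). At an unadjusted p below 0.05, 3 subunits were lower and 0 higher, against 10.2% and 4.59% of tested genes. The share of 3 in 37 is near that background. Accessory subunits had a median log2 fold change of -0.18 with 28 of 30 below 0, and core subunits one of 0.08 with 2 of 7 below 0, while all tested genes had a median of -0.05 with 56.2% below 0. In 3 subunits, Ndufb6, Ndufb10 and Ndufa3, all MVT libraries lay below all VT libraries (15.4% of tested genes), and in 0 they lay above (9.3%). With GC content and length trends removed, 17 of 37 subunits lay below 0 and their median was 0.02, on the other side of 0 from the -0.12 as deposited. The median of all tested genes moved as well, from -0.05 to 0.02. The accessory median was -0.10 without MVT replicate 1 and -0.27 without MVT replicate 3, and the number at an unadjusted p below 0.05 was 0 without MVT replicate 1, 1 without VT replicate 2 or 3 and 5 without MVT replicate 3.

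Ndufa4, which shares the family name but is now counted as a subunit of cytochrome c oxidase, had the smallest p between MVT and VT. It had 25.5, 27.9 and 49.4 FPKM in the MVT libraries, 44.5, 70.9 and 70.01 in the VT libraries and 77.1 and 52.2 in the fresh libraries. MVT replicates 1 and 2 lay below all other libraries, MVT replicate 3 lay above VT replicate 1 but below both fresh libraries, and the log2 fold changes were -0.86 ± 0.28 (SE, adjusted p = 0.232) for MVT against VT and -0.93 ± 0.32 (SE, adjusted p = 0.188) for MVT against fresh. Ndufb10, a disulfide-linked subunit of the distal arm, had 40.7, 46.4 and 45.2 FPKM in the MVT libraries, 48.01, 73.3 and 76.7 in the VT libraries and 53.03 and 49.3 in the fresh libraries. VT replicates 2 and 3 stood above the other 6 libraries, which gave -0.54 ± 0.19 (SE, adjusted p = 0.242) for MVT against VT and 0.33 ± 0.21 (SE, adjusted p = 0.397) for VT against fresh. Ndufb6 had 198, 234 and 243 FPKM in the MVT libraries, 254, 319.9 and 258 in the VT libraries and 316 and 275 in the fresh libraries, a difference of -0.30 ± 0.15 (SE, adjusted p = 0.375) between MVT and VT. Ndufa3, a small single-span subunit of the proximal arm, had 27.8, 33.7 and 35.7 FPKM in the MVT libraries, 38.7, 47.4 and 39.2 in the VT libraries and 65.4 and 38.95 in the fresh libraries. Its MVT libraries lay below all others, with -0.36 ± 0.20 (SE, adjusted p = 0.432) against VT and -0.63 ± 0.23 (SE, adjusted p = 0.205) against fresh. The value against fresh was -0.27 when fresh replicate 1 was left out and -0.9989 when fresh replicate 2 was. On the higher side, the smallest p between MVT and VT were those of the core subunits Ndufs3 (0.14 ± 0.14), Ndufs8 (0.09 ± 0.13) and Ndufs7 (0.08 ± 0.12) and of the accessory Ndufa10 (0.07 ± 0.13), a proximal arm subunit with a nucleoside kinase fold, all within the spread between libraries (adjusted p from 0.660 to 0.829). Ndufa10 had 62.8, 65.7 and 65.9 FPKM in the MVT libraries, 58.7, 66.2 and 60.3 in the VT libraries and 58.2 and 66.7 in the fresh libraries, the smallest ratio of highest to lowest library among the 37.

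Between melatonin-treated and fresh blastocysts the median of the subunits lay furthest from 0 of the 3 comparisons, with accessory subunits low in MVT and Ndufa12 and Ndufs1 high. With limma 0 of 37 passed at an adjusted p below 0.05, and 0.0% of tested genes did. At an unadjusted p below 0.05, 11 subunits were lower and 2 higher, against 6.82% and 11.6% of tested genes. All MVT libraries lay below both fresh libraries in 20 of 37 subunits and above them in 2, Ndufa12 and Ndufs1, against 13.5% and 20.8% of tested genes. Accessory subunits had a median log2 fold change of -0.34 with 27 of 30 below 0, core subunits one of -0.04 with 4 of 7 below 0, and all tested genes one of 0.09 with 40.7% below 0. The 11 lower subunits at an unadjusted p below 0.05 numbered 3 without MVT replicate 1, 5 without MVT replicate 2 and 15 without MVT replicate 3. They numbered 11, 10 and 5 without VT replicates 1, 2 and 3. Leaving out a VT library does not change the differences between MVT and fresh, only the shared estimate of their spread. The median over all subunits, -0.28, was -0.20 when MVT replicate 1 was left out, -0.25 when fresh replicate 1 was (all tested genes then 0.01), and -0.37 when fresh replicate 2 was. The 3 comparisons share libraries pairwise and are not independent of each other.

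Ndufa5, a small peripheral subunit of the Q module, had 93.3, 103 and 119 FPKM in the MVT libraries, 117, 123 and 147 in the VT libraries and 155 and 140.4 in the fresh libraries, and its MVT libraries lay below both fresh libraries, at -0.49 ± 0.16 (SE, adjusted p = 0.185). Ndufa8 had 379, 413 and 434 FPKM in the MVT libraries, 432, 499.6 and 461 in the VT libraries and 541 and 492 in the fresh libraries, and its MVT libraries too lay below both fresh libraries, at -0.34 ± 0.14 (SE, adjusted p = 0.238). Ndufa6 had 245, 305 and 280.4 FPKM in the MVT libraries, 289, 296 and 309 in the VT libraries and 323 and 294 in the fresh libraries, and its groups overlapped. In Ndufb2, with 12.7, 12.1 and 17.2 FPKM in the MVT libraries, 11.4, 22.6 and 15.4 in the VT libraries and 23.4 and 17.4 in the fresh libraries, every MVT library lay below fresh and VT overlapped both. Ndufb4 had 4.19, 8.06 and 6.70 FPKM in the MVT libraries, 7.74, 7.92 and 8.31 in the VT libraries and 6.90 and 8.26 in the fresh libraries, and MVT replicate 1 stood below the other 7 libraries. A processed copy, Ndufb4c, matches Ndufb4 base for base over 390 bases, so the level of Ndufb4 is uncertain. The 10 subunits not described singly (Ndufa11, Ndufa13, Ndufa7, Ndufa9, Ndufb3, Ndufb8, Ndufc1, Ndufc2, Ndufs6 and Ndufv3), from Ndufv3 at a mean of 34.8 FPKM to Ndufa9 at 219, had log2 fold changes between -0.35 and 0.15 for VT against fresh, between -0.30 and 0.03 for MVT against VT and between -0.52 and 0.04 for MVT against fresh. Ndufa9, a Q module subunit that binds a nucleotide cofactor, was at the top of the last range (0.04 ± 0.14), and Ndufa11, of the proximal arm, at its foot (-0.52 ± 0.20). For Ndufa11 this value was -0.25 without fresh replicate 1 and -0.80 without fresh replicate 2.

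**Figure D2:**
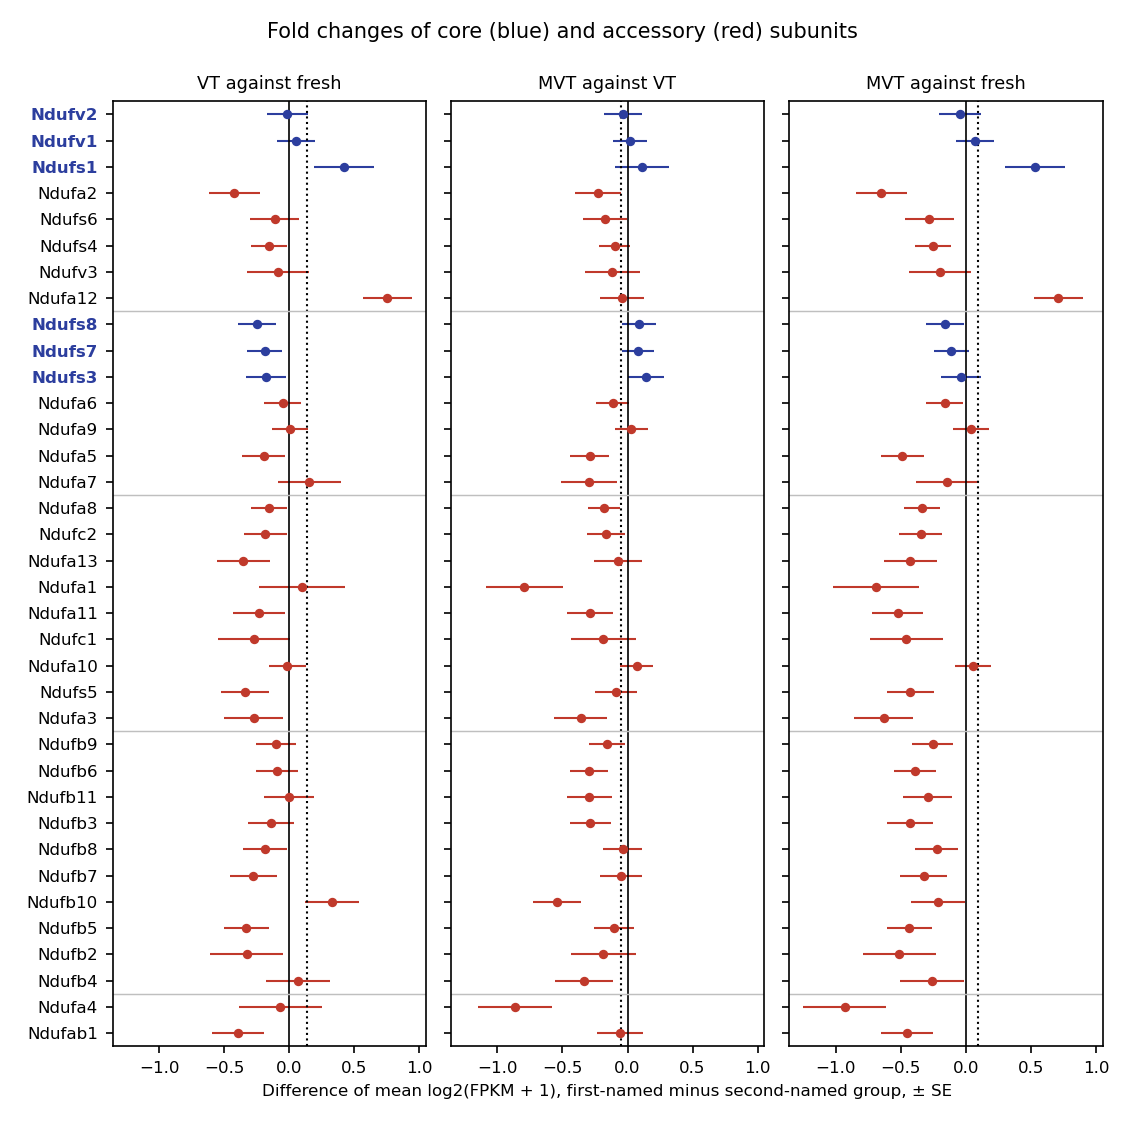
Difference of mean log2(FPKM + 1), first-named minus second-named group, with its SE for 36 subunits in 3 comparisons, core subunits in blue and accessory in red, with the median of all tested genes as a dotted line. Ndufa12 is the highest in both comparisons with fresh (0.75 and 0.71), and most accessory subunits lie left of 0 in each panel.

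Core and accessory subunits parted by library. Relative to each gene's mean over the 8 libraries, the median of the accessory subunits was -0.34, -0.14 and -0.01 in MVT replicates 1 to 3, -0.12, 0.14 and 0.01 in VT replicates 1 to 3 and 0.26 and 0.10 in fresh replicates 1 and 2 (log2 scale). For the core subunits the same median was -0.05, 0.02 and 0.02 in MVT, -0.06, -0.02 and 0.01 in VT and -0.04 and 0.09 in fresh, and for all tested genes 0.00, 0.01 and -0.01 in MVT, 0.03, 0.08 and 0.06 in VT and -0.17 and -0.01 in fresh. The accessory median was thus lowest in MVT replicate 1 and highest in fresh replicate 1, a span of libraries over which the core median moved little. MVT replicate 1 was the lowest library for 25 of 37 subunits and fresh replicate 1 the highest for 17. Core minus accessory came to 0.29, 0.16 and 0.03 in MVT, 0.06, -0.15 and 0.00 in VT and -0.30 and -0.02 in fresh. By summed FPKM the core subunits made up 16.9, 16.1 and 15.1% of all 37 in the MVT libraries, 14.9, 13.1 and 13.6% in VT and 12.4 and 14.8% in fresh, so that all MVT libraries lay above all others. The sums behind these shares were 660.4, 720.0 and 737 FPKM for the core in MVT, 683, 697 and 679.9 in VT and 696 and 765 in fresh. Those of the accessory subunits were 3253, 3751 and 4136 FPKM in MVT, 3889.6, 4631 and 4318 in VT and 4934 and 4396 in fresh. Since genes are not replicates and the core has 7 of them, the contrast is given as a description without a test.

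**Figure D3:**
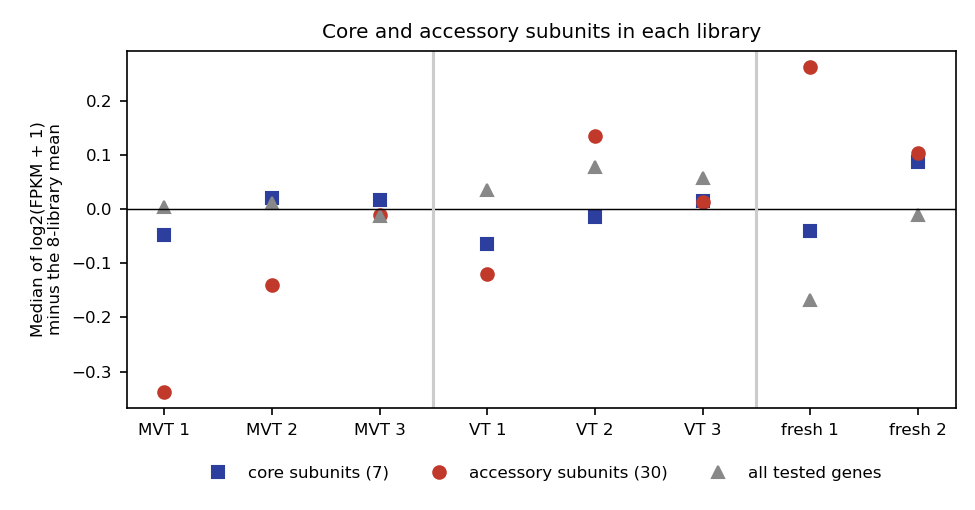
Median over core (blue squares), accessory (red circles) and all tested genes (grey triangles) of log2(FPKM + 1) minus each gene's mean over the 8 libraries, for MVT, VT and fresh replicates. Accessory subunits range between -0.34 in MVT replicate 1 and 0.26 in fresh replicate 1, and core subunits between -0.06 and 0.09.

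Core and accessory subunits also differed in transcript length. The longest annotated transcript had a median of 1661 bases for core, 944.5 for accessory subunits and 2833 for all tested genes. Across the 37 subunits, which share libraries and are not independent, the log2 fold change correlated with log2 length at Pearson's r = 0.45 for MVT against VT, 0.28 for MVT against fresh and -0.05 for VT against fresh. Among the 30 accessory subunits alone r was 0.48, 0.16 and -0.22 in the same order. Over 10713 tested genes r was 0.16, 0.26 and 0.11. With trends of GC content and length removed from each library, the median for core minus that for accessory subunits was 0.18 for MVT against VT (as deposited, 0.26), 0.35 for MVT against fresh (0.31) and 0.12 for VT against fresh (0.14). The accessory median for MVT against VT was then -0.05. Without fresh replicate 1 the core minus accessory difference for VT against fresh was 0.01. The part of length in the contrast was not tested beyond this.

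Medians were also taken by module. The 9 proximal arm subunits had median log2 fold changes of -0.23 for VT against fresh, -0.18 for MVT against VT and -0.43 for MVT against fresh. The 10 distal arm subunits had -0.12, -0.24 and -0.31 in the same order. All 10 were below 0 in MVT against VT and in MVT against fresh, as were 56.2% and 40.7% of tested genes. In MVT against VT, 8 of the 10 lay below the median of all tested genes. The 8 N module subunits had -0.05, -0.07 and -0.12, and the 8 Q module subunits -0.11, -0.02 and -0.13. Within the N module the medians for VT against fresh, MVT against VT and MVT against fresh were 0.05, 0.02 and 0.07 for the 3 core and -0.11, -0.12 and -0.25 for the 5 accessory subunits. Within the Q module they were -0.18, 0.08 and -0.07 for 4 core and -0.02, -0.20 and -0.15 for 4 accessory subunits, so that for VT against fresh the core lay below the accessory subunits there. With 0 subunits past the test, these are descriptions of the lists. Single libraries moved them. The proximal median was -0.11 for VT and -0.27 for MVT against fresh without fresh replicate 1, -0.12 for VT against fresh without VT replicate 1 and -0.08 for MVT against VT without VT replicate 2. The distal median was -0.12 for MVT against VT without MVT replicate 1 and -0.06 for VT against fresh without VT replicate 1. The N module median changed sign without MVT replicate 1 for MVT against VT (0.03) and for MVT against fresh (0.01), and for VT against fresh it was 0.01 without VT replicate 1 and 0.00 without fresh replicate 1. The Q module median for MVT against VT was 0.03 without MVT replicate 1 and 0.04 without VT replicate 1.

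Of the 37 genes, 2 lie on the X chromosome (mm10), Ndufa1 at 37187588 to 37191163 and Ndufb11 at 20615326 to 20617619. Ndufa1, a small membrane subunit needed for assembly of the complex, had 80.2, 100.3 and 119.9 FPKM in the MVT libraries, 108, 210.5 and 224 in the VT libraries and 203 and 127 in the fresh libraries. VT replicates 2 and 3 and fresh replicate 1 were high and the other 5 libraries lower, all MVT libraries lay below both fresh libraries and MVT overlapped VT, with log2 fold changes of -0.79 ± 0.30 (SE, adjusted p = 0.271) for MVT against VT, -0.69 ± 0.33 (SE, adjusted p = 0.297) for MVT against fresh and 0.10 ± 0.33 for VT against fresh. Ndufb11, of the distal arm, had 151, 168 and 189 FPKM in the MVT libraries, 162, 229 and 238 in the VT libraries and 218 and 196 in the fresh libraries, again with VT replicates 2 and 3 highest. These 2 libraries also differed from the other 6 in sex-linked transcripts. Xist, the RNA that silences an X chromosome in female cells, was at 10.5 and 8.14 FPKM in VT replicates 2 and 3 and at most 0.963 elsewhere. The 4 Y-linked genes Ddx3y, Eif2s3y, Kdm5d and Uty were all listed at 0 in VT replicates 2 and 3 and all above 0 in the other 6 libraries. Tested genes of the X chromosome other than these subunits had a median of 0.18 and 0.29 in VT replicates 2 and 3 relative to their 8-library means, and between -0.16 and -0.03 in the others. The part of sex-linked dosage in the values of Ndufa1 and Ndufb11 was not tested. Without VT replicate 1, the only VT library with Y-linked transcripts, the value of Ndufa1 for MVT against VT was -1.13, and for VT against fresh it was 0.43 without VT replicate 1 and -0.24 without fresh replicate 2.

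**Figure D4:**
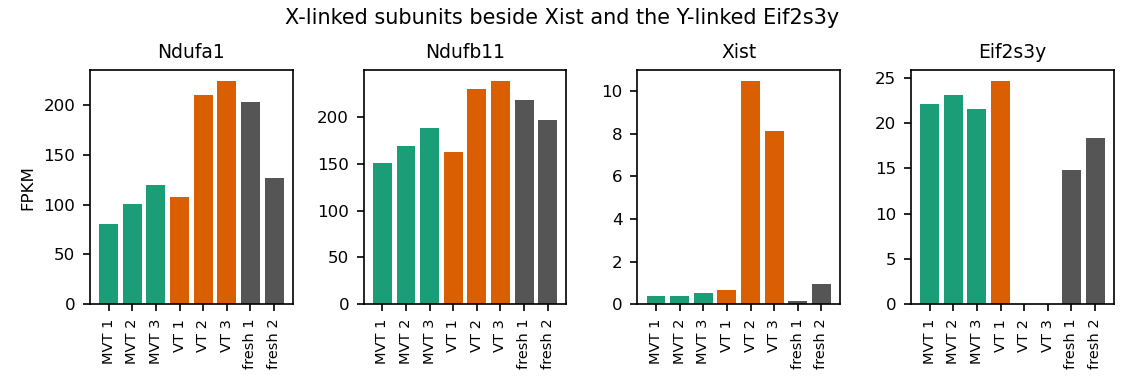
FPKM of the X-linked subunits Ndufa1 and Ndufb11, of Xist and of the Y-linked Eif2s3y in each library, with bars in green for MVT, orange for VT and grey for fresh. VT replicates 2 and 3 hold the 2 highest values of both subunits and of Xist, and Eif2s3y is listed at 0 in them.

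Related gene lists were set beside the subunits. Of 20 complex I assembly factors listed, 16 were analysed and all 16 were tested, with 0 past the limma threshold in any comparison and 4, 1 and 4 at an unadjusted p below 0.05 for VT against fresh, MVT against VT and MVT against fresh, where 20.2%, 14.8% and 18.5% of tested genes were. Their median log2 fold changes were 0.14 for VT against fresh, -0.09 for MVT against VT and 0.13 for MVT against fresh beside 0.14, -0.05 and 0.09 over all tested genes. Acad9, a flavoprotein that takes part in building the membrane arm, had 9.90, 14.6 and 10.1 FPKM in MVT, 16.3, 8.95 and 12.7 in VT and 4.71 and 6.10 in fresh, with 1.06 ± 0.27 (SE, adjusted p = 0.0743) for VT against fresh and 0.96 ± 0.27 (SE, adjusted p = 0.154) for MVT against fresh. Nubpl, which inserts iron-sulfur clusters into the complex, had 5.41, 5.48 and 5.27 FPKM in MVT, 6.14, 5.72 and 5.05 in VT and 3.89 and 3.48 in fresh. All 6 vitrified libraries of both genes lay above fresh. Ndufaf2, the assembly factor that Ndufa12 replaces in the finished complex, had 25.4, 33.6 and 28.8 FPKM in MVT, 31.5, 42.9 and 31.2 in VT and 38.01 and 46.9 in fresh, with all MVT libraries below fresh at -0.52 ± 0.20 (SE, adjusted p = 0.223). Tmem70, an assembly factor of ATP synthase and of complex I, had 42.8, 53.9 and 56.9 FPKM in MVT, 19.3, 39.3 and 18.2 in VT and 30.7 and 43.7 in fresh. All MVT libraries of Tmem70 lay above all VT libraries, at 1.05 ± 0.28 (SE, adjusted p = 0.179).

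For 38 nuclear subunits of the other respiratory complexes and of ATP synthase the medians resembled those of complex I. Their median log2 fold changes were -0.14 for VT against fresh, -0.17 for MVT against VT and -0.28 for MVT against fresh, with 32 of 38 below 0 in the last (40.7% of tested genes). With limma 0 passed in each, and 4, 4 and 12 had an unadjusted p below 0.05 in the same order, beside 20.2%, 14.8% and 18.5% of tested genes. The difference between the accessory subunits of complex I and these genes was not tested. Without fresh replicate 1 the median of these genes was 0.02 for VT against fresh and -0.16 for MVT against fresh. Sdha, the catalytic subunit of complex II, had 73.3, 61.3 and 53.5 FPKM in MVT, 66.4, 50.7 and 63.4 in VT and 35.6 and 46.01 in fresh, so that it lay higher in every vitrified library than in fresh, as Ndufs1 did in MVT. Most of the list ran the other way. Cox6a1 and Uqcrq, with the smallest p among its lower genes for MVT against fresh, lay below both fresh libraries in every vitrified library. Their log2 fold changes for MVT against fresh were -0.59 ± 0.14 and -0.65 ± 0.17 (SE, limma adjusted p = 0.141 and 0.143). The 7 complex I subunits encoded in the mitochondrial genome had median log2 fold changes of -0.47 for VT against fresh, -0.61 for MVT against VT and -1.23 for MVT against fresh, with 0 of 7 past the limma threshold and 3, 4 and 7 lower at an unadjusted p below 0.05, as 4.56%, 10.2% and 6.82% of tested genes were. Their summed FPKM was 3965, 3879 and 4201 in MVT, 5256, 8019 and 6023 in VT and 15549 and 5810.2 in fresh. All MVT sums lay below all VT and fresh sums, and fresh replicate 1 lay far above every other library. Without fresh replicate 1 their medians were -0.13 for VT and -0.42 for MVT, each against fresh.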

How the data were processed

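The authors deposited 1 table of FPKM for 19688 genes and 8 libraries, and the column names give the unit, per the file headers. Genome build mm10 was used, per the submitters' processing notes. The labels' protocol describes poly(A) selection and a stranded library while the series' design names Smart-seq2, and neither these nor the file header name an aligner, a counter, an annotation or a strand setting. Ensembl identifiers were matched to GENCODE M21 on GRCm38 (19577 of 19688). Fragments per library were estimated from FPKM times length of genes with 1 transcript, where 94.5% to 96.7% of low values came within 0.1 of a whole number (chance gives 20%). Exons of 16 of the 37 subunits overlap another gene, 14 of them on the opposite strand, and 9 have a processed pseudogene at 95% identity or more over at least 200 bases. These genes are uncertain where reads were shared.

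Group means were compared by limma 3.58.1 (R 4.3.3), fitted to log2(FPKM + 1) of all 8 libraries together with its variance trend. Of the genes, 10755 reached 1 FPKM in 2 libraries or more and were tested, all 37 subunits among them. A call needed a two-sided p below 0.05 after Benjamini-Hochberg adjustment across these genes. The fit was tested on simulated data. Tables were made with pandas 2.3.3 and numpy 2.4.6 and figures with matplotlib 3.10.9 under Python 3.11.15. Alternatives changed the filter (none, or 5 FPKM on average), the pseudocount (0.1), the scaling (median ratio, quantile), the variance model (no trend, library weights), the libraries fitted (only the groups compared, or each library left out in turn), the threshold (adjusted p below 0.1) or added replicate blocks or a correction for GC content and length. Named subunits are the 7 core subunits, the 4 with the smallest p per direction and comparison, the 4 highest and 4 lowest by mean FPKM, those on the X chromosome and those without overlap in 2 or more comparisons. 1 subunit is counted in the lists and medians but not reported singly here. Related lists gave up to 2 genes per direction with the smallest p. Ndufa9, Ndufa11 and Ndufv3 were named after their values were seen. Subunits, lists and tests were chosen with earlier results of these data known.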

Additional observations from a re-analysis of the deposited data

How the results depend on the processing

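The count of subunits past the threshold was 0 in each comparison and under every alternative that left 2 or more libraries per group, with 1 exception. This was Ndufa12, in VT against fresh at a limma adjusted p below 0.1, and the share of all tested genes below 0.1 was not taken. Where fresh replicate 2 or 1 was left out, a single fresh library stands for its group. The log2 fold change of Ndufa3 for MVT against fresh was then -0.9989 or -0.27, respectively. The median log2 fold change of all subunits for VT against fresh was -0.34 with median ratio scaling and -0.32 with the title number as a replicate block, and that of accessory subunits -0.36 with that block. MVT replicate 1, VT replicate 2 and fresh replicate 2 share their title number with no other library. This block therefore takes them out of the comparisons, and fresh replicate 1 alone stood for its group. For MVT against VT the title number block gave a median of -0.00248 over all subunits, with 20 of 37 below 0, and of -0.04 over all tested genes. Median ratio scaling shifts the median of all tested genes as well, to -0.01, against 0.14 without it, so that the subunits lay -0.33 and -0.28 relative to all tested genes. Leaving out single libraries gave ranges for VT against fresh of -0.22 to -0.08 over all, -0.08 to 0.05 over core and -0.24 to -0.08 over accessory subunits. For MVT against VT the ranges were -0.22 to -0.07, 0.02 to 0.10 and -0.27 to -0.10, and for MVT against fresh -0.37 to -0.20, -0.10 to 0.04 and -0.45 to -0.26. The core median was above the accessory median in every comparison and alternative, by 0.01 (VT against fresh without fresh replicate 1) to 0.48. The 0.48 was for MVT against fresh with the title number block, where fresh replicate 1 alone stood for fresh. Of 1539 values of named subunits under the alternatives, 105 moved by more than the SE. Same-numbered libraries did not deviate together (r of -0.115 to 0.121), and with the biosample number as a replicate block 0 subunits passed in each comparison and the medians were -0.18, -0.12 and -0.32 for VT against fresh, MVT against VT and MVT against fresh. Of all tested genes, 93 passed for VT against fresh (1 to 433 over the alternatives, 1 with this block), 15 for MVT against VT (0 to 233) and 0 for MVT against fresh (0 to 565). Subunits lower at an unadjusted p below 0.05 numbered 0 to 10, 0 to 5 and 0 to 16 in these comparisons. The share of all tested genes at that level was not taken under the alternatives. These ranges, and the counts given above with libraries left out, thus have no background beside them. With 2 or 3 libraries a group, differences of the size seen here were mostly within the spread between libraries, which does not show that levels were equal.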
